A study of Mus musculus with 10 samples.

Results

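Aging of the jejunum was read from 2 of the 10 arrays of the series, the pair titled Jejunum, one from mice aged 28 months and the other from mice aged 4 months. The mice were male ICR, an outbred stock, caged singly under specific-pathogen-free conditions on the AIN-93 diet. The older animals came to the study at 8 months and the younger ones at 2 months. Each mouse gave its own RNA extract, equal amounts of which were pooled from 9 mice at 28 months and from 6 mice at 4 months and hybridised to 1 Affymetrix Mouse Genome 430 2.0 array per age, which reads each transcript through short probes close to its 3′ end. The labels of the 28-month intestinal arrays describe both the normal diet and the same diet with LB81 yogurt, and the array's own title names neither. The 9 mice of the series' design match the number given for the normal-diet group. Those arrays are also numbered and titled apart from the others, and if they were prepared apart, that cannot be told apart from age in the intestine.

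The jejunum is the stretch of small intestine where most digestion is completed and most sugar, amino acids and fat are taken up. Its lining turns over continuously: stem cells and dividing cells in the crypts feed absorptive enterocytes, goblet cells and hormone-secreting cells that move up the villi and are shed at the tips, while Paneth cells stay at the crypt base and secrete antimicrobial peptides. Beneath the epithelium lie fibroblasts, vessels, muscle and nerves, with macrophages, T cells and many plasma cells that make immunoglobulin A. Many epithelial genes are also graded along the length of the gut, so that a gene's level depends on where a piece was taken. Where along its length each piece was taken is not stated in the labels. Each jejunal difference is therefore set beside the level of the same gene in ileum and distal colon.

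Values are signals scaled to a common mean, and every ratio is the log2 of the 28-month signal divided by the 4-month signal. Signals below 111 units, the median of all signals, were counted as 111, so a fold against such a signal is a bound. A pool of several mice on 1 array has no replicate, so no difference could be tested and no p-value is given. "Rose" and "fell" below mean only that a gene passed 2-fold between these 2 arrays. In bulk tissue, fewer cells of a type and less RNA per cell cannot be told apart.

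Marker genes placed both arrays in the upper small intestine. Fabp2, the fatty acid binding protein of enterocytes, gave 24259 units at 28 months and 34442 at 4 months. With 37249 and 37025 units in ileum, it did not separate jejunum from ileum. Cybrd1, the duodenal iron reductase, gave 1468 units at 28 months and 1156 at 4 months, against at most 177 in ileum and distal colon. The duodenal transcription factor gene Pdx1 gave 226 and 216 units at 28 and 4 months, and 1863 and 1184 with a second probe set. Ileal Fabp6 (52 units at 28 months and 46 at 4 months), Slc10a2 (24 and 23) and Fgf15 (51 and 57) and colonic Hoxb13 (35 and 42) and Car1 (53 and 63) all lay below the floor at both ages. Both arrays also held transcripts of tissue next to the upper intestine. Cela2a, a pancreatic elastase, gave 9811 units at 28 months and 10404 at 4 months, against at most 62 in ileum and distal colon. Gkn1, which encodes a gastric mucus protein, gave 6273 units at 28 months and 9141 at 4 months, and Tff1, a trefoil peptide of the stomach, gave 10842 and 13688. Both arrays thus lacked the ileal and colonic markers above the floor, and the samples carried duodenal, gastric and pancreatic transcripts. Over 16 measured pancreatic acinar genes the median ratio was -0.004 and the summed signal 122259 units at 28 months against 126092 at 4 months. Over 7 measured genes of Brunner gland, gastric and mesothelial cells 6 lay below 0 with a median of -0.34, and the sum was 80465 units at 28 months against 94161 at 4 months. No member of either list passed 2-fold, and the part of this tissue in the results was not tested.

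Of 18194 genes on the array, 12337 were measured in the jejunum, and their median ratio was 0.03. The middle of the distribution was narrow, with 10th and 90th percentiles at -0.31 and 0.35. Genes that fell outnumbered those that rose: 122 genes fell 2-fold or more (0.989% of those measured) and 29 rose 2-fold or more (0.235%). At 1.5-fold 369 genes were lower (2.99%) and 239 higher (1.94%). Counted by sign alone the balance was the other way, since 55.9% of all measured genes had ratios above 0. That lean was slight, and under another scaling of the arrays the median of all measured genes was -0.002. Of the genes past 2-fold, 11 that fell and 2 that rose had 1 age below the floor. The plot of jejunal signals at both ages shows the genes that fell strung out far below the diagonal over the whole range of signal.

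**Figure D1:**
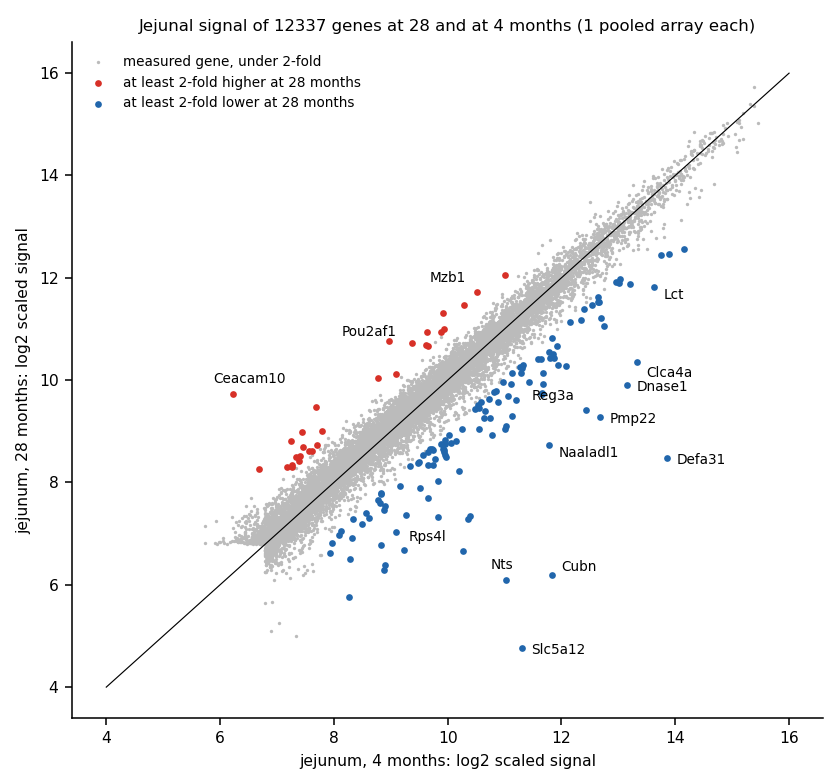
Log2 scaled signal of each of 12337 measured genes in the jejunum at 28 months (vertical) against 4 months (horizontal), 1 pooled array each. The line marks equal signal, with 29 genes that rose 2-fold in red and 122 that fell 2-fold in blue. Cubn, Slc5a12, Nts and Defa31 lie farthest below the line and Ceacam10 farthest above it.

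Among the genes with the largest falls were several with more signal in ileum than in jejunum at both ages. Cubn, the receptor for intrinsic factor and vitamin B12 in the ileum, gave 73 units in jejunum at 28 months against 3631 at 4 months, while the ileum gave 9856 units at 28 months and 8281 at 4 months. Nts, which encodes neurotensin from hormone cells of the distal small intestine, gave 68 units in jejunum at 28 months against 2081 at 4 months, with 6628 and 5124 units in ileum at 28 and 4 months. Defa31, an alpha-defensin gene of Paneth cells read by a probe set that can detect several transcripts, gave 356 units in jejunum at 28 months against 14837 at 4 months, with 58582 and 53402 in ileum. In each of these genes the 28-month jejunum stood far below the 4-month jejunum, which lay between it and the ileum, and the ileum itself differed little with age.

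Further genes had the same profile. Naaladl1, a brush border peptidase, gave 425 units in jejunum at 28 months against 3506 at 4 months, and 21784 and 12914 in ileum at 28 and 4 months. Slc34a2, an intestinal phosphate transporter, gave 103 units at 28 months against 599 at 4 months, with 5914 and 3629 in ileum. Clca4a, of the calcium-activated chloride channel regulator family, gave 1312 units at 28 months against 10235 at 4 months, with 15040 and 14254 in ileum. None of these 3 genes was lower in ileum at 28 months than at 4 months. Pmp22, a membrane protein of cell junctions and myelin, gave 621 units at 28 months against 6532 at 4 months, and its level was high farther down at both ages, at 12320 and 10675 units in ileum and 6925 and 7960 in distal colon. Car3, a carbonic anhydrase of muscle and fat, gave 91 units at 28 months against 310 at 4 months, with 1063 and 1043 in ileum.

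Another group was lower in ileum at 28 months as well. Slc5a12, a sodium-coupled lactate carrier, gave 27 units in jejunum at 28 months against 2522 at 4 months, and 210 against 3102 in ileum. Dnase1, a secreted DNA-degrading enzyme, gave 961 units in jejunum at 28 months against 9140 at 4 months, and 161 against 12419 in ileum. Lct, lactase of the brush border, gave 3600 units in jejunum at 28 months against 12629 at 4 months, and 92 against 14054 in ileum. None of these had a distal colon signal above the floor at either age. On the ileal arrays the listed genes of the upper small intestine had a median ratio of -3.62, against -0.09 in jejunum (14 measured genes, 6 above 0 and 8 below). The ileal bile acid hormone gene Fgf15 gave 1419 units in ileum at 28 months and 210 at 4 months. The ileal pair thus differed in its segment markers too, and the part of sampling position in either pair was not tested.

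**Figure D2:**
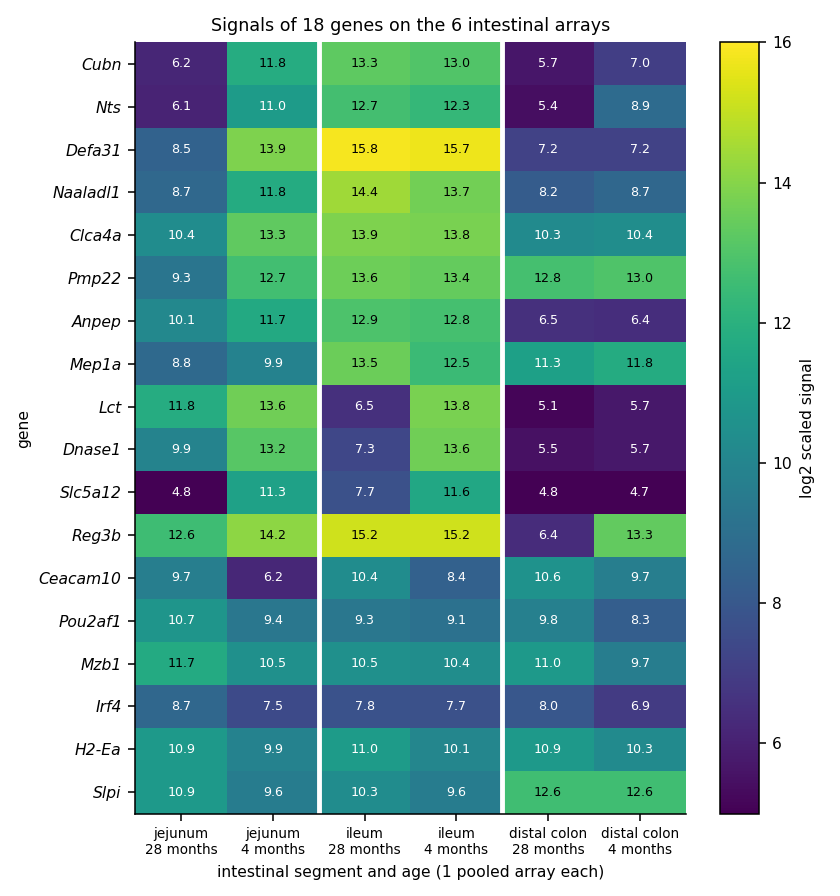
Log2 scaled signals of 18 genes on the 6 intestinal arrays, 28 months to the left of 4 months within each segment, colour running with the printed value. Cubn, Nts, Defa31 and Naaladl1 are high on both ileal arrays and lower in the jejunum at 28 months than at 4 months, while Lct, Dnase1 and Slc5a12 are lower at 28 months in jejunum and ileum alike.

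The segment profile was then read for all measured genes from the 4 ileum and distal colon arrays, which take no part in the jejunal ratio. A gene was called ileum-high or colon-high when the segments differed 2-fold or more the same way at both ages, and ungraded when they differed by less than 2-fold at both. Of the 122 genes that fell in jejunum, 67 were ileum-high (54.9%), 1 was colon-high and 18 were ungraded. The other 36 belonged to none of these classes (29.5%, against 10.4% of all measured genes). Over all measured genes 4.1% were ileum-high, and those 503 genes had a median jejunal ratio of -0.38, against 0.04 for 10158 ungraded genes and 0.10 for 392 colon-high genes. Of the 29 genes that rose, 3 were ileum-high, 3 colon-high and 19 ungraded (65.5%, against 82.3% of all measured genes). Ileum-high genes thus made up a larger share of the genes that fell than of all measured genes.

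The share of genes that fell was larger where the ileum excess was larger. Among 127 genes whose ileum signal exceeded that of distal colon by more than 3 on the log2 scale, 31 fell (24.4%) and the median ratio was -0.59. Among 115 genes with an excess of 2 to 3, 22 fell (19.1%), and among 455 with an excess of 1 to 2, 35 fell (7.69%). Among 10940 genes within 1 of each other, 32 fell (0.29%) and 21 rose. Across genes the jejunal ratio and the ileum minus distal colon difference had Pearson r = -0.40 and Spearman rho = -0.345, a description over genes that share the same arrays and are not independent. Many genes of absorptive enterocytes are known to be expressed in ileum and little in distal colon, so a gradient along the small intestine and the epithelial content of the tissue cannot be told apart by this measure.

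**Figure D3:**
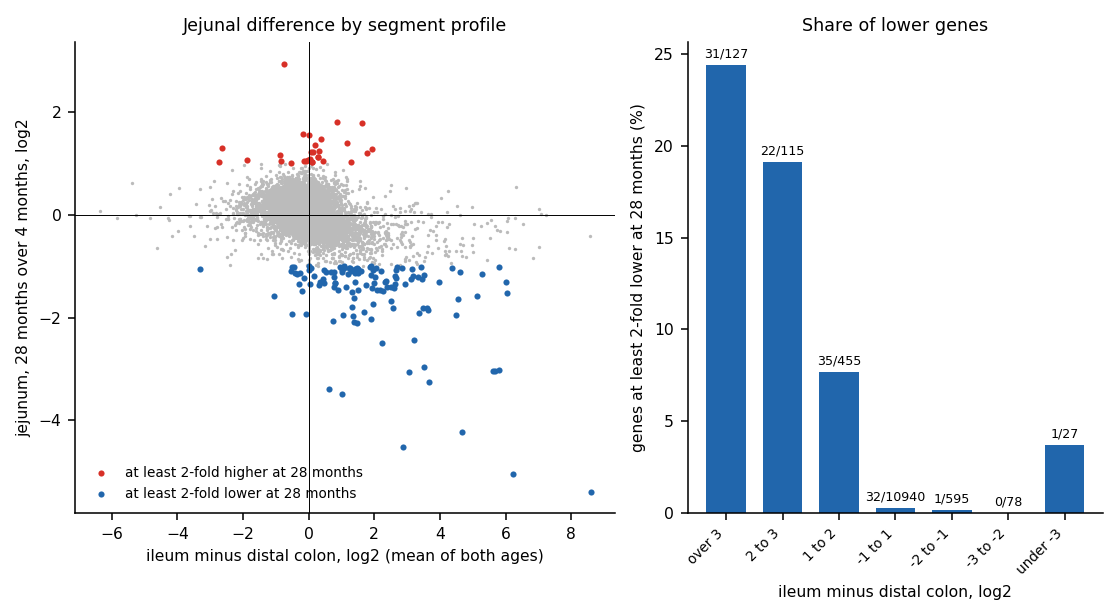
Left, the jejunal log2 ratio of 28 over 4 months of each measured gene against its log2 difference between ileum and distal colon, averaged over both ages, with genes past 2-fold coloured. Right, the percentage of genes that fell 2-fold or more in bins of that difference, with genes that fell over genes in the bin above each bar. The share is 24.4% in the highest bin and 0.29% in the bin around 0.

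The jejunum was also set against the ileum of the same age over all measured genes. The 2 arrays of 4 months were the more alike: 195 measured genes differed 2-fold between ileum and jejunum at 4 months, and 679 at 28 months. By age within the ileum, 58 of the 122 were also lower by 1.5-fold or more (47.5%, against 4.2% of all measured genes), 56 were within 1.5-fold and 8 were higher by 1.5-fold or more (6.6%, against 4.8%). In distal colon 17 were also lower by 1.5-fold (13.9%, against 2.0% of all measured genes) and 4 were higher (3.3%, against 2.2%).

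Enterocyte genes were prominent among the falls, and brush border peptidases had the lowest median of all lists. These enzymes sit on the microvilli and cut peptides before uptake. All 9 measured peptidase genes had ratios below 0 and 6 of them fell 2-fold or more (median -1.13). Anpep, aminopeptidase N, gave 1131 units at 28 months against 3265 at 4 months. Dpp4, dipeptidyl peptidase, gave 2302 units at 28 months against 5170 at 4 months, and its 4 measured probe sets gave ratios from -1.52 to -0.93. Ace, angiotensin-converting enzyme, gave 1234 units at 28 months against 4343 at 4 months, with its other probe set at -1.61. The same list had a median of 0.15 in ileum and -0.22 in distal colon, and 7 of its 9 genes were ileum-high. Mep1a, the meprin alpha subunit, gave 433 units in jejunum at 28 months against 949 at 4 months, and 11892 against 5743 in ileum, so the segments ran in opposite directions, a difference that was not tested. The peptidase Tmprss15, enteropeptidase of the duodenum, was nearest to 0 at -0.22, with 663 units at 28 months and 775 at 4 months.

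Among enzymes that split sugars and phosphates 7 of 8 measured members lay below 0, 5 of them by 1.5-fold, and 2 fell, Lct as above and Asah2, neutral ceramidase, with 2144 units at 28 months against 6867 at 4 months. Asah2 was read by 3 probe sets with ratios of -2.05, -1.68 and -0.04, the last of them from signals of 64 and 114 units. Treh, trehalase, and Enpp3, a nucleotide-cleaving ectoenzyme, both had ratios of -0.81, and Mgam, maltase-glucoamylase, had -0.19. Alpi, intestinal alkaline phosphatase, gave 26213 units at 28 months and 26198 at 4 months, while a second alkaline phosphatase gene, Akp3, was at -0.61. The list's median was -0.71 in jejunum and -1.63 in ileum.

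Carriers of sugars, amino acids and vitamins followed. All 8 measured sugar carriers lay below 0 (median -0.45) and 3 fell: Slc5a4b, Slc5a4a and Slc5a11, all of the sodium and glucose cotransporter family. Slc5a4b gave 157 units at 28 months against 1316 at 4 months, and the near-identical Slc5a4a gave 161 against 908, so these may share signal. The main glucose carrier Slc5a1 gave 13249 units at 28 months and 17176 at 4 months, a ratio of -0.37. The fructose carrier Slc2a5 was at -0.21. Of 12 measured amino acid and peptide carriers 11 lay below 0 and 5 fell (median -0.67), namely Slc7a8, Slc7a7, Slc16a10, Slc43a2 and Slc15a1. Slc15a1, the peptide carrier of the brush border, gave 702 units at 28 months against 1505 at 4 months. Slc7a7, the basolateral exporter of cationic amino acids, gave 1213 against 2539 units at 28 and 4 months. In this list 11 of 12 genes were ileum-high, and its ileal median was -0.43.

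Among 15 measured genes of organic anion, lactate and vitamin uptake 12 lay below 0 and 4 fell, namely Cubn, Slc5a12, Slc34a2 and Slc23a1. Slc23a1, a carrier of vitamin C, gave 78 units at 28 months against 470 at 4 months, and 68 against 744 in ileum. Amn, the membrane partner of cubilin, gave 2299 units at 28 months and 3845 at 4 months, a ratio of -0.74. The partner gene thus differed far less than Cubn. The thiamine carrier Slc19a3 lay above 0, at 0.49. Without ileum-high and colon-high genes 6 members were left with a median of -0.20, against -0.58 for the whole list.

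Genes of fat handling lay below 0 by smaller amounts. Of 22 measured genes of fat absorption and chylomicron assembly 21 lay below 0, 11 of them by 1.5-fold, and none passed 2-fold (median -0.56). Cd36, a fatty acid receptor, gave 1219 units at 28 months and 2397 at 4 months, and its 3 probe sets were at -0.98, -1.11 and -1.47. Npc1l1, through which cholesterol enters the enterocyte, was at -0.88, and Abcg5 and Abcg8, the paired transporters that send sterols back to the lumen, were at -0.97 and -0.96. Apob, the structural protein of chylomicrons, gave 12016 units at 28 months and 19600 at 4 months. Mttp, which loads lipid onto it, gave 8666 and 10949 units at 28 and 4 months, a ratio of -0.34. In this list 19 of 22 genes were ileum-high, and the ileal median was -0.83. The 3 genes that were not ileum-high had a median of -0.26.

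Retinoid and steroid enzymes included 2 of 12 that fell, Bco1 and Cyp4f14, the second of which hydroxylates fatty acids and eicosanoids. Bco1, which cleaves beta-carotene to retinal, gave 165 units in jejunum at 28 months against 616 at 4 months, 304 against 859 in ileum, and 227 against 104 in distal colon. Rbp2, the retinol binding protein of enterocytes, was at -0.71. Genes of cholesterol synthesis lay on the other side. Of 16 measured members 15 were above 0 and 4 passed 1.5-fold (median 0.345), with a median of 0.865 in ileum and 0.60 in distal colon. Fdft1, squalene synthase, gave 1822 units at 28 months and 1141 at 4 months. Sqle, squalene epoxidase, gave 1551 and 1009 units at 28 and 4 months, and Srebf2, the transcription factor that drives the pathway, 752 and 500. A second Srebf2 probe set, with 692 units at 28 months and 622 at 4 months, was at only 0.15. The related factor gene Srebf1, which drives fatty acid synthesis, fell: it gave 1823 units at 28 months against 3663 at 4 months, and 1701 against 4570 in ileum. Npc1l1, Abcg5 and Abcg8 thus had ratios below 0 and the listed sterol synthesis genes mostly above 0 on the same arrays, none of them past 2-fold. The sterol exporter gene Abca1, outside these lists, fell, with 1131 units at 28 months against 2493 at 4 months.

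Position on the villus was read from lists of tip and base genes. At the tip 12 of 13 measured genes lay below 0 (median -0.60) and 2 fell, Pmp22 and Nt5e. Nt5e, the ectoenzyme that makes adenosine, gave 784 units at 28 months against 2359 at 4 months, with a second probe set at -0.75. Krt20, a keratin of mature cells, gave 11077 units at 28 months and 18868 at 4 months, and Ada, adenosine deaminase, 13901 and 20772. Of the tip genes 4 were ileum-high, and the 9 others had a median of -0.60, as did the whole list. That class compares ileum with distal colon only, so the 9 others still hold genes such as Pmp22, which was brighter in ileum than in jejunum. The part of sampling position in the tip median was not tested. At the base 7 of 8 lay below 0 (median -0.30) and 3 fell, all of them antimicrobial lectin genes of the Reg3 family. Reg3b gave 6079 units in jejunum at 28 months against 18206 at 4 months, with 37730 and 37929 in ileum. Reg3g gave 5546 units at 28 months against 13796 at 4 months, with 27317 and 29635 in ileum. Reg3a gave 685 units at 28 months against 5524 at 4 months, and 4132 against 9295 in ileum. In distal colon Reg3b gave 83 units at 28 months against 10366 at 4 months, and Reg3g 78 against 1751. The Reg3 genes were thus not lower in the jejunum alone.

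Secretory lineages had list medians near 0. Goblet cell genes had a median of -0.11 over 16 measured members, with Muc2, the main mucin, at 9729 units at 28 months and 11180 at 4 months. Retnlb, an antimicrobial peptide of goblet cells, stood apart from them at 6855 units at 28 months and 3543 at 4 months, a ratio of 0.95. Of 19 measured enteroendocrine genes 9 lay above 0 and 10 below, 2 fell, Nts as above and Gcg, and 1 rose. The gene that rose was Neurog3, the transcription factor that starts this lineage, with 366 units at 28 months against 169 at 4 months. Chgb and Chga, granule proteins of mature hormone cells, were at 0.60 and 0.42. Gcg, which encodes the glucagon-like peptides of more distal L cells, fell in jejunum, with 454 units at 28 months against 994 at 4 months, and was higher in ileum, with 5474 against 2708. Of 8 measured tuft cell genes none passed 1.5-fold. Tight junction genes had 12 of 14 below 0 (median -0.17), and 1 fell, Cldn4, with 796 units at 28 months against 1684 at 4 months.

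Among the crypt lists those of division, growth and stem cells had medians above 0. The list of Wnt ligands and targets was nearer to 0 (median 0.09). Those of Paneth cells (median -0.13) and of CDK inhibitors and p53 targets (-0.06) were not above 0. In cell division, every one of the 29 measured genes of G2 and M phase had a ratio above 0 (median 0.45), 4 passed 1.5-fold and none passed 2-fold. Of 24 measured S phase genes 23 lay above 0 (median 0.37) and none passed 1.5-fold. The same lists had medians of 0.015 and 0.028 in ileum and of -0.037 and 0.138 in distal colon. None of their members was ileum-high or colon-high. Aurkb, a mitotic kinase, gave 315 units at 28 months and 186 at 4 months, Nusap1, a spindle protein, 1032 and 632, and Plk1, another mitotic kinase, 616 and 393. Mki67, the usual marker of dividing cells, gave 2665 and 1817 units at 28 and 4 months. These are differences of under 2-fold on 1 array per age. They ran one way through the list of G2 and M phase, where 55.9% of all measured genes were above 0. Genes of a list share both arrays and are no replicates.

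Promoters of genes of G2 and M phase are known to carry a cell cycle homology region, a short element through which the DREAM and B-MYB complexes act, together with CCAAT boxes bound by NF-Y. Sequences from 250 bases before to 50 bases after the start were taken from RefSeq (GRCm38.p6), with an entry for 9956 of the 12337 measured genes and for 23 of the 29 in the list. The letters TTTGAA were found on either strand in 18 of those 23 promoters (78.3%), in 3 of 20 S phase promoters and in 11.9% of all promoters. CCAAT was found on either strand in 19 of the 23 (82.6%), in 11 of 20 S phase promoters and in 38.0% of all. The letters TTTGAA were thus found in a larger share of the mitotic list than of the S phase list, whose jejunal medians were 0.45 and 0.37. A match of letters is a description and not a site in use. The 120 bases before the start are shown for 4 genes of the list with TTTGAA in that stretch. These are examples: not every gene of the list was considered, and they need not have the highest jejunal ratios. Capitals mark TTTGAA or CCAAT on either strand, the reverse forms reading TTCAAA and ATTGG.
Kif11, chr19:37376262-37376381, plus strand: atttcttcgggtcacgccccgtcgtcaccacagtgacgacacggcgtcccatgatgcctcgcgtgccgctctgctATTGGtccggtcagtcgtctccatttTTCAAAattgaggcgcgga
Mki67, chr7:135716380-135716499, minus strand: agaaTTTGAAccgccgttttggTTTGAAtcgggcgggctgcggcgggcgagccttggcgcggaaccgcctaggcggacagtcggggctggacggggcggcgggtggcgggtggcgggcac
Cdc20, chr4:118437344-118437463, minus strand: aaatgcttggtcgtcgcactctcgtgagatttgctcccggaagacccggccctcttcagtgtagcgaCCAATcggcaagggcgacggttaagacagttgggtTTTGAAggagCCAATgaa
Cdk1, chr10:69352913-69353032, minus strand: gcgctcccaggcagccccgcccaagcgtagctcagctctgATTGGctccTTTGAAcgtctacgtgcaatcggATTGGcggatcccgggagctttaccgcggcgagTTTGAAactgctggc

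Kif11, a spindle motor, had a ratio of 0.64 and carries 1 TTTGAA, beginning 19 bases before the start. Mki67, at 0.55, carries 2, beginning 116 and 98 bases before it, and no CCAAT in this stretch. Cdc20, an activator of the anaphase-promoting complex, was at 0.53, and Cdk1, the kinase that drives mitosis, at 0.47. In Cdc20 and Cdk1 the nearest TTTGAA begins 18 and 15 bases before the start, with 2 CCAAT boxes each. The 3 promoters with an element that close to the start all hold CCAAT upstream of it.

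Growth genes lay on the same side of 0 as division genes. Of 18 measured Myc targets and ribosome assembly genes all 18 lay above 0 and 4 passed 1.5-fold, with a median of 0.505 in jejunum, 0.05 in ileum and 0.15 in distal colon. Myc itself gave 895 units at 28 months and 593 at 4 months, and Ncl, nucleolin, 7476 and 4967. Polr1b, a subunit of RNA polymerase I, was at 0.70, and Dkc1, which modifies ribosomal RNA, at 0.61. Mxd1, which encodes a partner of Max that opposes Myc and rises in differentiated cells, fell, with 2838 units at 28 months against 5970 at 4 months and other probe sets at -0.93 and -0.52. The cell cycle inhibitor gene Cdkn1a gave 3451 units at 28 months and 4747 at 4 months, a ratio of -0.46. Over 13 measured genes of CDK inhibitors and p53 targets the median was -0.06.

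Stem cell genes leaned the same way as division. Of 21 measured members 16 lay above 0 (median 0.30), and the same list had a median of 0.30 in ileum and 0.0 in distal colon. Olfm4, a crypt base marker, gave 14352 units at 28 months and 9840 at 4 months. Znrf3 and Rnf43, ubiquitin ligases induced by Wnt that remove its receptor, were at 0.71 and 0.56, and Axin2, another Wnt target, at 0.50. These are among the higher values: of 18 measured Wnt ligands and targets 12 lay above 0 and 6 below (median 0.09). Lgr5, the stem cell receptor for R-spondin, gave 296 units at 28 months and 273 at 4 months. Clca4a, listed there, fell as described and is ileum-high. Lyz1, a lysozyme of Paneth cells, gave 42910 units at 28 months and 40644 at 4 months. Its probe sets can detect several transcripts, and spleen gave 33134 and 32192 units, so the Paneth cell part cannot be told apart. Mmp7, which activates defensins, gave 2653 units in jejunum at 28 months and 2125 at 4 months. Of 10 measured Paneth genes Defa31 was the one that fell, and Guca2b, the precursor of uroguanylin, was at -0.83 with 12275 and 21852 units at 28 and 4 months.

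**Figure D4:**
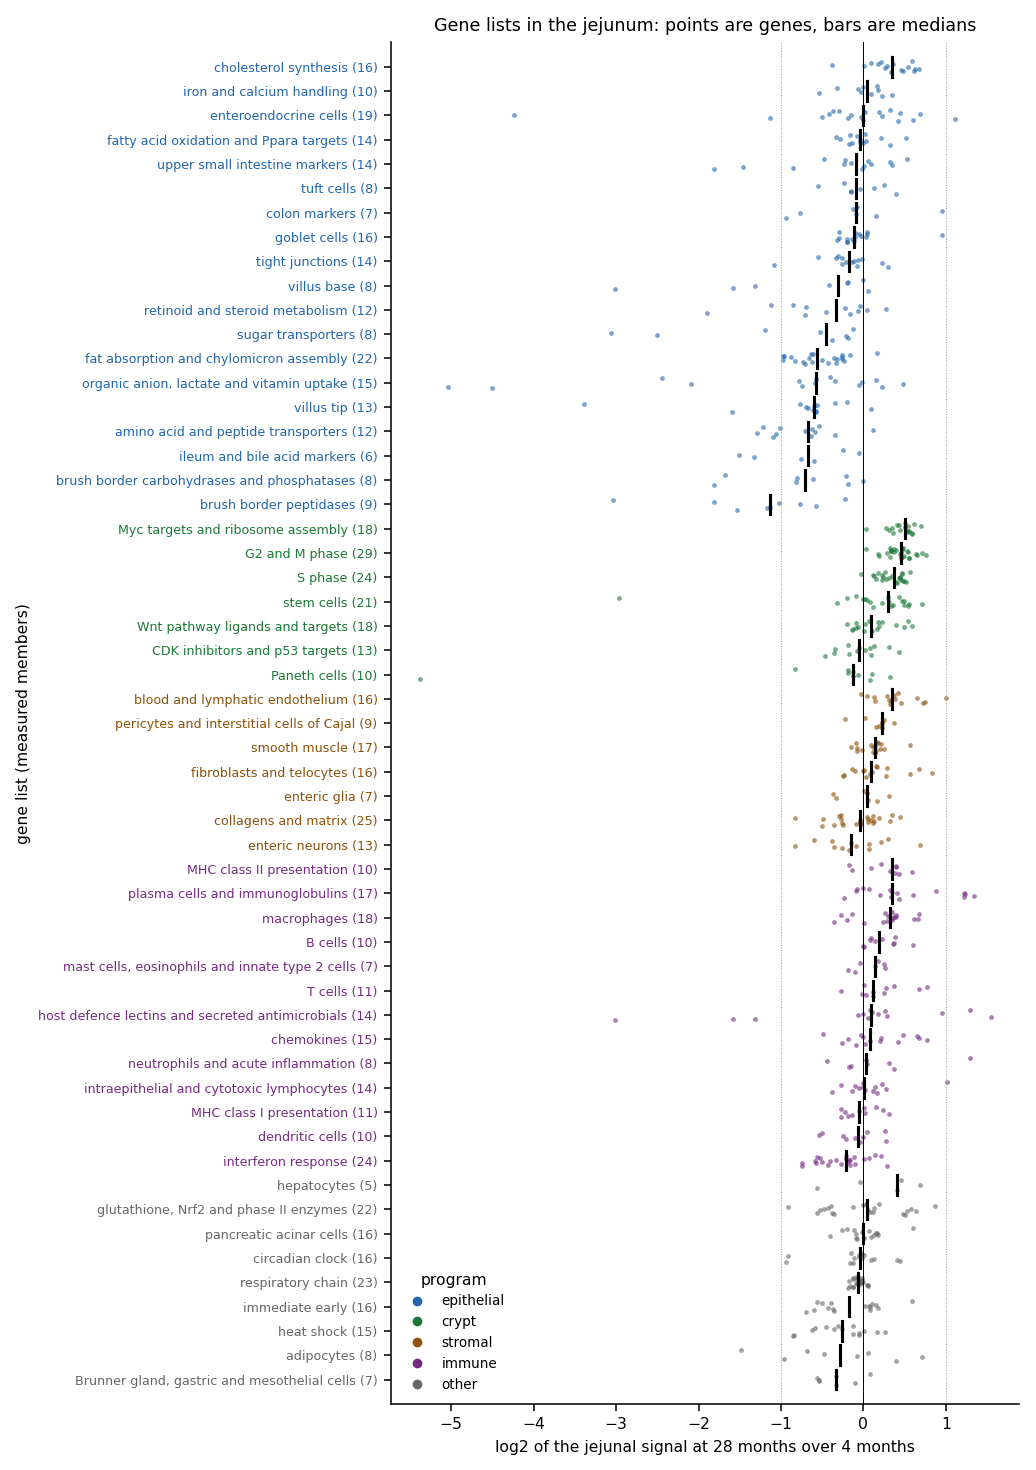
Log2 ratios of 28 over 4 months in the jejunum for the measured members of each gene list, 1 point per gene, with the median as a black bar and dotted lines at 2-fold. Within a program, lists run from the highest median to the lowest. Lists of peptidases, carriers and fat absorption lie below 0 and those of division, ribosome assembly, endothelium and plasma cells above it.

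In the stroma matrix genes were level and vascular genes leaned upward. Of 25 measured collagens and matrix genes 11 lay above 0 and 14 below (median -0.04), and none passed 2-fold. Col3a1, a fibrillar collagen, gave 3782 units at 28 months and 4825 at 4 months, and Postn, periostin, 524 and 929. Smooth muscle genes had a median of 0.14 in jejunum, 0.75 in ileum and -0.485 in distal colon. Myh11, smooth muscle myosin, gave 2712 units in jejunum at 28 months and 2437 at 4 months. Of 16 measured genes of blood and lymphatic endothelium 15 lay above 0 (median 0.35), 4 passed 1.5-fold and 1 rose, Vwf, the von Willebrand factor, with 391 units at 28 months against 195 at 4 months. Kdr and Flt1, receptors for vascular endothelial growth factor, were at 0.72 and 0.75, and Plvap, of fenestrated capillaries, at 0.65. The ileal and colonic medians of this list were 0.11 and 0.04.

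Among 16 measured genes of fibroblasts and telocytes the median was 0.095. Grem1, a BMP antagonist of the crypt niche, had the highest ratio, with 425 units at 28 months and 238 at 4 months, and Thy1, a fibroblast surface protein, had 293 and 183. The BMP ligand genes Bmp2 and Bmp4 were at -0.25 and -0.24, and Bmp5 at 0.56. Enteric neuron genes had a median of -0.15 over 13 measured members. Vip, the neuropeptide that relaxes gut muscle, gave 1303 units at 28 months and 2307 at 4 months. Of 7 measured glial genes none passed 1.5-fold.

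Among the immune lists that of plasma cells had the most genes past 2-fold upward. These cells secrete antibody, mainly immunoglobulin A in the gut. Of 17 measured genes 13 lay above 0 (median 0.34) and 4 rose, namely Pou2af1, Irf4, Mzb1 and Tnfrsf13b. Mzb1, which helps assemble antibody, gave 3399 units in jejunum at 28 months against 1458 at 4 months, with 1453 and 1332 in ileum and 1981 and 808 in distal colon. Pou2af1, a coactivator for immunoglobulin genes, gave 1686 units at 28 months against 663 at 4 months, with 650 and 556 in ileum and 885 and 317 in distal colon. Both were thus higher with age in jejunum and distal colon and near level in ileum. Irf4, a transcription factor of plasma cells, gave 414 units at 28 months against 176 at 4 months, but its dim second probe set was at 0.05. Tnfrsf13b, the receptor TACI for B cell survival factors, gave 516 units at 28 months against 222 at 4 months.

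Other genes of antibody production had a range of ratios. Igha, the heavy chain of immunoglobulin A, gave 53987 units at 28 months and 42625 at 4 months. Jchain, which joins immunoglobulin A into dimers, gave 26102 units at 28 months and 19403 at 4 months. Derl3, of the protein export machinery of secretory cells, was at 0.88 and Prdm1, the factor that commits plasma cells, at 0.60. Kappa light chain segments Igkv4-68, Igkv6-20, Igkv6-14, Igkv4-72, Igkv15-103 and Igkv14-111 also rose. Igkv6-14 gave 2532 units in jejunum at 28 months against 966 at 4 months and 693 against 131 in distal colon, while Igkv15-103 gave 2831 against 1242 in jejunum and 900 against 1472 in ileum. Such segments are close copies, so each probe set may read several of them. Tent5c, a poly(A) polymerase active in plasma cells, also rose, with 1638 units at 28 months against 791 at 4 months and a second probe set at 0.81.

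Other lymphocytes gave small values. B cell genes had a median of 0.185 and Ms4a1 lay at the floor, at 112 units at 28 months and 67 at 4 months. Of 11 measured T cell genes 9 lay above 0 (median 0.12). Il7r, the interleukin 7 receptor, at 0.78 and Lat, a signalling adaptor, at 0.68 passed 1.5-fold, and none passed 2-fold. Cd3e, of the T cell receptor complex, gave 334 units at 28 months and 326 at 4 months. Cd3d and Cd3g, of the same complex, were at 0.12 and -0.02. Ccr9, the receptor that brings lymphocytes to the small intestine, rose, with 423 units at 28 months against 209 at 4 months, and its dimmer probe set was at 0.22. Il15, a survival cytokine of intraepithelial lymphocytes, fell, with 398 units at 28 months against 857 at 4 months. Gzma and Gzmb, granzymes of those lymphocytes, were at 0.17 and -0.38. Cd3d, Cd3e and Cd3g thus differed little, while a homing receptor and a cytokine passed 2-fold and other T cell genes leaned upward.

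Macrophage genes leaned upward, with 14 of 18 above 0 (median 0.32) and none past 2-fold. Lyz2, the lysozyme of macrophages, gave 9293 units at 28 months and 6078 at 4 months, and Apoe, a lipid carrier that macrophages secrete, 4146 and 2599. C1qa, a complement subunit, was at 0.34, while Adgre1, the F4/80 antigen, gave 344 and 343 units at 28 and 4 months. Of 10 measured genes of MHC class II presentation 8 lay above 0 (median 0.35), with H2-Eb1 at 4563 units at 28 months and 3037 at 4 months. H2-Ea, a class II alpha chain outside that list, rose, with 1970 units at 28 months against 941 at 4 months and 2095 against 1072 in ileum. Interferon response genes lay the other way, 19 of 24 below 0 (median -0.215), without any past 2-fold. Ifit1, an antiviral protein, gave 669 units at 28 months and 1117 at 4 months. Il33, an alarmin of stromal and epithelial cells, fell, with 326 units at 28 months against 804 at 4 months and 263 against 800 in ileum.

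Secreted defence genes went both ways. Beside the Reg3 genes that fell, 2 rose: Reg2, of a related lectin family, with 507 units at 28 months against 174 at 4 months, and Slpi, a protease inhibitor of mucosal surfaces, with 1955 against 798. Reg2 lay below the floor in ileum and distal colon at both ages, as did the pancreatic gene Cela2a. Both jejunal arrays carried pancreatic transcripts, and the tissue that gave the Reg2 signal was not tested. Slpi was much brighter in distal colon, at 6322 and 6291 units at 28 and 4 months. Ccl20 and Ccl28, chemokines that draw lymphocytes to mucosa, were at 0.78 and 0.67, and Cxcl13, which draws B cells, at 0.65. Dimmer probe sets of Ccl28 and Cxcl13 were at 0.10 and 0.34. Ceacam10, a secreted member of the carcinoembryonic antigen family, had the largest rise, at least 7.61-fold, with 843 units at 28 months against 75 at 4 months, and 1309 against 342 in ileum and 1540 against 829 in distal colon.

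Probe sets of one gene gave an internal check, though they share both arrays and are no replicates. Of the genes that fell, 34 had other measured probe sets, 43 in all, and 42 of these pointed the same way (97.7%), 31 past 1.5-fold (72.1%) and 22 past 2-fold (51.2%). Of the genes that rose, 8 had 1 other measured probe set each, of which 7 pointed the same way, 4 past 1.5-fold and 2 past 2-fold. Over all 5124 genes with several measured probe sets, the others had the direction of the one used in 71.9% of cases and passed 1.5-fold that way in 4.6%. The median SD between probe sets of a gene was 0.11. Cubn was at -4.11 on its other probe set, Slc5a12 at -4.55 and Ceacam10 at 2.75. For these 3 genes a large change was seen by separate probes, while Defa31, Nts, Rps4l, Pmp22 and Dnase1 had 1 measured probe set each and could not be checked in this way. Rises near 2-fold had less agreement: Cmah, which makes a sialic acid, had another probe set at 0.20, and Fads1, a fatty acid desaturase, had another at -0.10. Among falls, Fbln1, a matrix protein, had probe sets at -1.20, -1.02 and 0.04.

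**Figure D5:**
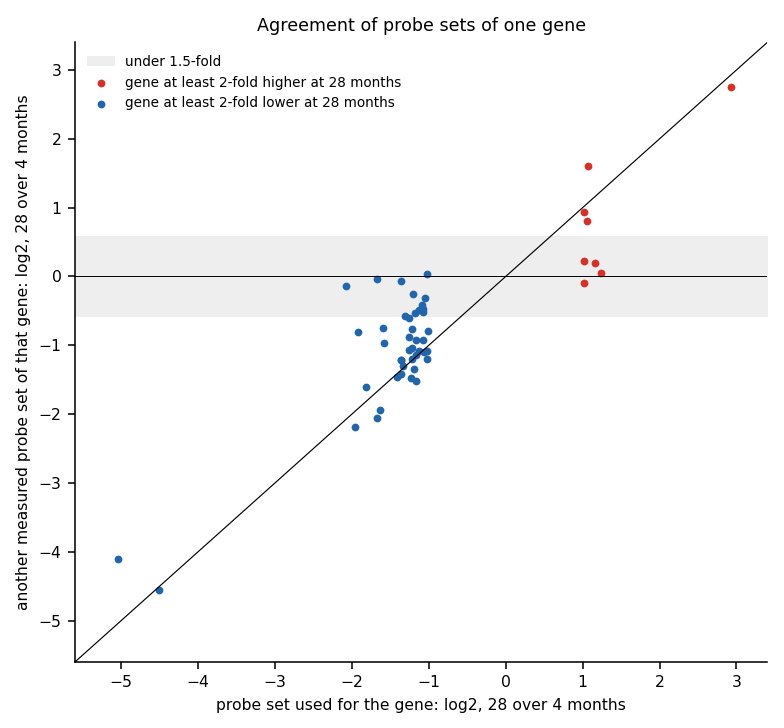
For genes past 2-fold with several measured probe sets, the log2 ratio of 28 over 4 months of each other probe set (vertical) against that of the one used (horizontal), with the line of equality and a grey band under 1.5-fold. Of 43 other probe sets of genes that fell, 42 lie below 0, and of 8 of genes that rose, 7 lie above it.

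Genes with 3 or more measured probe sets that all moved 1.5-fold the same way were few. Upward these were Ces1d, a carboxylesterase, at 0.93 to 1.04, Slc16a9, a carnitine carrier, at 0.63 to 0.78, and Mthfd1, an enzyme of folate metabolism, at 0.62 to 0.94. Downward they included Dpp4 and Cd36 as above, Aqp3, a water and glycerol channel, at -1.22 to -0.76, Lhfpl2 at -1.26 to -0.60, Rfk, riboflavin kinase, at -1.11 to -0.77, and Ugcg, which makes glucosylceramide, at -0.79 to -0.67. Socs3, which dampens cytokine signals, was at -1.16 to -0.76 and the heat shock gene Hspa1b, close to its copy Hspa1a, at -1.05 to -0.84. Of all these genes, Dpp4, Aqp3 and Lhfpl2 also passed 2-fold on the probe set used for the gene.

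A narrower reading kept only genes within 2-fold between all 3 segments at both ages. The jejunal arrays enter this rule, so it also removes genes that moved far from the other segments. It left 7 genes that rose, namely D17H6S56E-5, Espl1, H2-Ea, Irf4, Lrg1, Mid1 and Tent5c, and 6 that fell, namely Cdk20, Dipk2a, Il15, Mxd1, Srebf1 and Trim34a. Espl1, the separase that parts sister chromatids, gave 316 units at 28 months against 153 at 4 months. Mid1, a ubiquitin ligase bound to microtubules, gave 450 units in jejunum at 28 months against 152 at 4 months, and its ratio was 1.01 in liver and 0.83 in spleen. Lrg1, a secreted leucine-rich glycoprotein, gave 390 units at 28 months against 190 at 4 months, and was higher by 1.5-fold or more in all 5 tissues. Rps4l, a copy of a ribosomal protein gene, was the only gene that fell in jejunum and was lower by 1.5-fold or more in all 5 tissues. It gave 101 units in jejunum at 28 months against 1235 at 4 months, and 70 against 1300 in ileum. Of the 29 genes that rose in jejunum, 9 were also higher by 1.5-fold in ileum (31.0%, against 4.8% of all measured genes) and 10 in distal colon (34.5%, against 2.2%), and 13 were within 1.5-fold in both (44.8%, against 88.0%).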

How the data were processed

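Pooled RNA (9 mice at 28 months, 6 mice at 4 months) was read on 1 array per tissue and age, 10 arrays in all. The values were deposited by the authors as log2 signals, 1 per probe set for 45101 probe sets. MAS5 and affy are named in the submitters' processing notes without version or role, and no source used here gives the normalization method. The range of the values set the log base. Detection calls were not used here.

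From these, linear signals were computed and scaled on each array to a mean of 500 units after trimming 2% at each end (factors 2.42 to 2.57). The floor was 111 units, the median of all signals, exceeded by 48.9% to 50.9% of probe sets per array. Of the probe sets, 34958 named 1 gene in GEO's platform annotation, 932 several, and 9211 were not listed and stayed unnamed. Each of 18194 genes was read from its probe set with the highest mean log2 signal, and a gene was measured if above the floor at either age. Genes count as changed from 2-fold. Only the number of arrays and signal over background set the precision. Probe sets near the 3′ end of actin exceeded those near the 5′ end by 0.97 at 28 months and 0.82 at 4 months (log2), and those of Gapdh by 0.17 and 0.08. The arrays of 28 and 4 months had r = 0.9916 over probe sets.

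Members and the 56 gene lists were chosen with earlier results of these data known, and lists share members. Of 943 listed genes 723 were measured. Genes were named by rule: the 15 largest ratios per direction whose probe sets moved alike by 1.5-fold, the 10 largest ungraded ones, genes with 3 alike probe sets, listed genes past 2-fold with up to 4 others per list, and markers. Named outside it, after their values were seen, were genes of the lists given as further examples and the promoter genes. So were Abca1, Cmah, Fads1, Fbln1, Il33, H2-Ea, Srebf1, Mxd1, Il15, Tent5c and the other genes within 2-fold between all segments. Scripts were tested on simulated data. Alternatives were other floors, scalings, probe set rules and fold thresholds. Further ones removed ileum-high and colon-high genes or genes graded between any segments. Python 3.11.15, numpy 2.4.6, pandas 2.3.3, scipy 1.17.1, statsmodels 0.14.6 and matplotlib 3.10.9 were used.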

Additional observations from a re-analysis of the deposited data

Results flagged for a closer look

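For 3 genes the age difference ran past 2-fold in opposite directions in the jejunum and another segment. With 1 array per side these differences were not tested. Gcg, the proglucagon gene, had a log2 ratio of -1.13 in jejunum and 1.02 in ileum. Mep1a, the meprin alpha subunit, had -1.13 in jejunum and 1.05 in ileum. Bco1, the beta-carotene cleaving enzyme, had -1.90 in jejunum and 1.03 in distal colon.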

How the results depend on the processing

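No paired analysis was possible because each group held 1 array. The 29 genes that rose numbered 13 with the floor at percentile 75, 239 at 1.5-fold, 3 at 3-fold, 7 without genes graded between any segments and 4 when 2 or more probe sets had to pass 1.5-fold. The 122 genes that fell numbered 369 at 1.5-fold, 35 at 3-fold and 54 without ileum-high and colon-high genes. They numbered 6 without genes graded between any segments and 22 with agreeing probe sets. The 67 of them that were ileum-high numbered 41 with the floor at percentile 75. Agreement of other probe sets, 87.5% by direction for genes that rose, was 50% at 1.5-fold and 25% at 2-fold, and for genes that fell it was 97.7% by direction and 51.2% at 2-fold. Of 21 lists with medians beyond 0.3 from 0, all but hepatocytes kept their sign under every setting run. The hepatocyte median was -0.035 without ileum-high and colon-high genes, where 3 members were left. The medians of fat absorption (-0.56) and of organic anion, lactate and vitamin uptake (-0.58) came as near to 0 as -0.264 and -0.197. Under the other scalings the median of all measured genes was -0.002 to 0.021, against 0.033 in the main setting. Genes near 111 units are limited by signal over background.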

Other observations

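Stress, clock and metabolic lists not described above held few large values. Of 15 measured heat shock genes 12 lay below 0 (median -0.26) and none passed 2-fold, with Hsph1, a chaperone of the Hsp110 family, at 1916 units at 28 months and 2941 at 4 months. Of 16 circadian clock genes 2 were lower by 1.5-fold, namely Npas2, a partner of Bmal1, with 173 units at 28 months and 331 at 4 months, and Dbp, a clock output factor, with 2940 and 5554. Per1 and Per3, repressors of the clock, were at 0.44 and 0.41. Genes of the respiratory chain lay close together, with 23 measured members between -0.18 and 0.06 and 20 of them below 0.

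Genes of detoxification went both ways. Of 22 measured genes of glutathione, Nrf2 and phase II enzymes 12 lay above 0 and none passed 2-fold. Gstm1, a glutathione transferase, gave 4580 units at 28 months and 2936 at 4 months, and Ces1g, a carboxylesterase, 1062 and 582. Sult2b1, a sterol sulfotransferase, gave 2059 units at 28 months and 3885 at 4 months. Among 8 measured adipocyte genes Cidec, a lipid droplet protein, gave 660 and 1283 units at 28 and 4 months, and Fabp4, a fatty acid binding protein of fat and endothelium, 2912 and 1775, while the defining marker Adipoq lay below the floor at both ages.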
